A study of Mus musculus with 12 samples.

Results

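Gbx2, Hmx2, Hmx3, Otx1, Otx2, Sp8, Prrx1, Prrx2 and Tbx1 are transcription factor genes. The first 5 and Tbx1 are known for domains along the axes of the otocyst, the sac that becomes the inner ear, while Sp8, Prrx1 and Prrx2 are better known from other tissues of the head and limb. They were taken as a list of 9 genes by symbol, out of 18193 genes named on the array, and every probe set annotated to 1 of them was followed, which gave 14 of the 45037 probe sets tested. Prrx1 has 6 probe sets and each of the other genes has 1. The rule names genes by symbol and sets no threshold on a value, but the list was drawn up with earlier results of these data known.

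Gene expression was measured on 12 Affymetrix mouse arrays, 2 for each of 6 groups. The question, by the series title, is which genes act downstream of Dlx5, a homeobox transcription factor of the dorsal otic epithelium. Vesicle arrays covered embryos labelled Dlx5-null at E10.5 (E for embryonic day), wild-type embryos at E10.5, embryos labelled Dlx5-null at E10 and wild-type embryos at E10. The other arrays covered 2B1 cells transfected with Dlx5 and 2B1 cells transfected with the empty vector. Each vesicle array holds a pool of 4 to 8 dissected otic vesicles, from timed pregnancies and staged by somite number, which had been treated with 1 mg/ml dispase to strip the attached mesenchyme. Neither the allele behind the label Dlx5-null nor the strain is named in the labels. The 2B1 line is a conditionally immortal cell line from the otic vesicle. Both of its groups first proliferated at 32 °C in medium with gamma-interferon. They then received a GFP vector by transient transfection, alone or carrying Dlx5, and spent 4 days at 37 °C with gamma-interferon withdrawn, which lets these cells differentiate. With 2 arrays in a group, precision is limited by their number for every value, and the p-values measure only the spread between these pools or cultures.

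The Dlx5 probe set went against the genotype labels. Its log2 level was 7.97 and 7.97 in the labelled-null arrays and 6.12 and 6.11 in the wild-type arrays at E10.5, and 7.27 and 8.02 against 6.20 and 6.30 at E10. It was thus higher in every labelled-null array, by 1.62 on the log2 scale over both stages (SE 0.17, limma adjusted p = 0.0570). Whether this probe set lies inside the deleted part of the gene could not be looked up here, and whether the labels are exchanged was not settled. Each genotype difference that follows is a difference between arrays labelled Dlx5-null and arrays labelled wild-type, and an exchange of the labels would turn the sign of every one of them. In 2B1 cells the same probe set stood at 5.14 and 4.8 with Dlx5 and at 4.66 and 4.79 with the empty vector. That difference of 0.24 (SE 0.18) did not pass (adjusted p = 0.631), so added Dlx5 was not detected by this probe set beyond the spread of the arrays. The vesicle arrays carried strong otic epithelial markers, with Oc90, a component of the otoconia, at a mean of 12.4 and the otic and neural crest factor Sox10 at 11.8. In 2B1 cells Oc90 averaged 5.88, close to the median of all probe sets on those arrays (5.39), while Col1a1, the collagen chain of mesenchyme, averaged 13.7. Other markers there went the other way, with otic Fbxo2 at 9.46 and mesenchymal Lum at 4.10 and Tcf21 at 3.63. The 9 otic epithelium genes measured averaged 5.90 to 6.04 on the 2B1 arrays, and the 17 periotic mesenchyme genes 7.02 to 7.41. Vesicle and 2B1 arrays appear to have been normalized separately, so no level is compared between them.

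The otocyst is a closed epithelial sac beside the hindbrain. Wnt signals from the dorsal hindbrain promote its dorsal fates, which become the endolymphatic duct and the vestibular canals, and Sonic hedgehog from the notochord and floor plate promotes ventral fates, which become the cochlear duct and saccule. Gbx2 is a homeobox gene of the dorsomedial wall needed for the endolymphatic duct, Hmx2 and Hmx3 are neighbouring homeobox genes of the dorsolateral wall needed for the vestibular organs, and Otx1 and Otx2 are bicoid-class homeobox genes of the ventral and lateral wall. Tbx1 is a T-box gene of the otic epithelium and the mesenchyme around it, Prrx1 and Prrx2 are paired-related homeobox genes of head and limb mesenchyme, and Sp8 is a zinc finger gene known for its roles in limb ectoderm and forebrain.

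Sp8 was the member whose genotypes stood apart on every array. Its probe set (1440519_at) had log2 levels of 5.04 and 5.05 in labelled-null vesicles and 5.77 and 5.79 in wild-type vesicles at E10.5. At E10 it had 5.02 and 5.12 in labelled-null vesicles and 5.87 and 6.14 in wild-type vesicles. All 4 labelled-null arrays therefore lay below all 4 wild-type arrays, with no overlap within either stage or across them. The mean vesicle level of Sp8, 5.475, was at the 46.1 percentile of all probe sets, below their median of 5.675. The order of the group means was labelled-null E10.5 at 5.04 ± 0.01, labelled-null E10 at 5.07 ± 0.07, wild-type E10.5 at 5.78 ± 0.01 and wild-type E10 at 6.01 ± 0.19 (SD, n = 2 each). The first 2 of these differ by less than their spread. In bulk pools such as these, fewer cells of a type and less RNA per cell cannot be told apart.

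Over both stages the Sp8 difference, labelled-null minus wild-type with stage as a covariate, was -0.84 on the log2 scale (SE 0.11, 95% interval -1.08 to -0.59), a 1.78-fold lower level. Its unadjusted limma p was 2.98e-05, which ranked 15 among the 45037 probe sets, and its adjusted p was 0.0895, so Sp8 missed the threshold of 0.05. Over the settings tried, the adjusted p ran between 0.0521, with replicate number as a block, and 0.566, without wild-type E10.5 replicate 2, and none passed. The difference was -0.73 at E10.5 (SE 0.16, adjusted p = 0.837) and -0.94 at E10 (SE 0.16, adjusted p = 0.605). The interaction with stage was 0.20 (SE 0.23, unadjusted p = 0.401), with a 95% interval that runs between -0.32 and 0.72. Between the stages themselves Sp8 differed by -0.03 in labelled-null and -0.22 in wild-type vesicles.

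RefSeq promoter windows, which run from 250 bases before to 50 bases after an annotated start, were matched to 8 of the 9 genes, with 15 windows in all (assembly GRCm38.p6). The 3 windows of Sp8 are printed because Sp8 is the member with separated genotypes. They lie on the plus strand of chromosome 12, and are written 5′ to 3′ in the direction of the gene. Capitals mark TAATTA, a core motif of many homeodomain factors that reads the same on both strands, and TAATCC, the bicoid-class motif, searched on both strands.

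Sp8 chr12:118846079-118846378: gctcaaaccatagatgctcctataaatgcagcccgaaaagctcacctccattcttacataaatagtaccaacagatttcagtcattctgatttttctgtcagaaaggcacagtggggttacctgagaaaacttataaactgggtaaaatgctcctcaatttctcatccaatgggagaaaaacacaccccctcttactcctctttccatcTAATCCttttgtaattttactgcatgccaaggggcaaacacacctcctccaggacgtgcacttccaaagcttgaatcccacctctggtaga
Sp8 chr12:118846983-118847282: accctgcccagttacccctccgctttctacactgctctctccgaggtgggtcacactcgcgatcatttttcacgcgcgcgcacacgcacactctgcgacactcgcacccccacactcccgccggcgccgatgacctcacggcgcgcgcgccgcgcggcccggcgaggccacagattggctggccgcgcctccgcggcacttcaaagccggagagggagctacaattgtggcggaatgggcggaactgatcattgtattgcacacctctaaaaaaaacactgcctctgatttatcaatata
Sp8 chr12:118847309-118847608: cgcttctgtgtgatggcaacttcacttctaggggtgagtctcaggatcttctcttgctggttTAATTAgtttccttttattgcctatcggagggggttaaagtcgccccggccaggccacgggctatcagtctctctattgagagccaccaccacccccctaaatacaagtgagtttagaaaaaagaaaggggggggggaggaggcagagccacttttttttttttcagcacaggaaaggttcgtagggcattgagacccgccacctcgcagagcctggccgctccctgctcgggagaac

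The first Sp8 window holds 1 TAATCC, the third holds 1 TAATTA, and the middle one holds neither. Among all 32851 windows of this length in the table, 5.29% hold TAATTA and 7.06% hold TAATCC on either strand. Of the 15 windows of the members, 4 hold TAATTA (1 of Sp8, 2 of Otx2 and 1 of Prrx1) and 2 hold TAATCC (1 of Sp8 and 1 of Otx2). The windows of Gbx2, Hmx2, Hmx3, Prrx2 and Tbx1 hold neither, and no matches in these windows overlap each other. These are matches of letters and say nothing of binding.

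**Figure D1:**
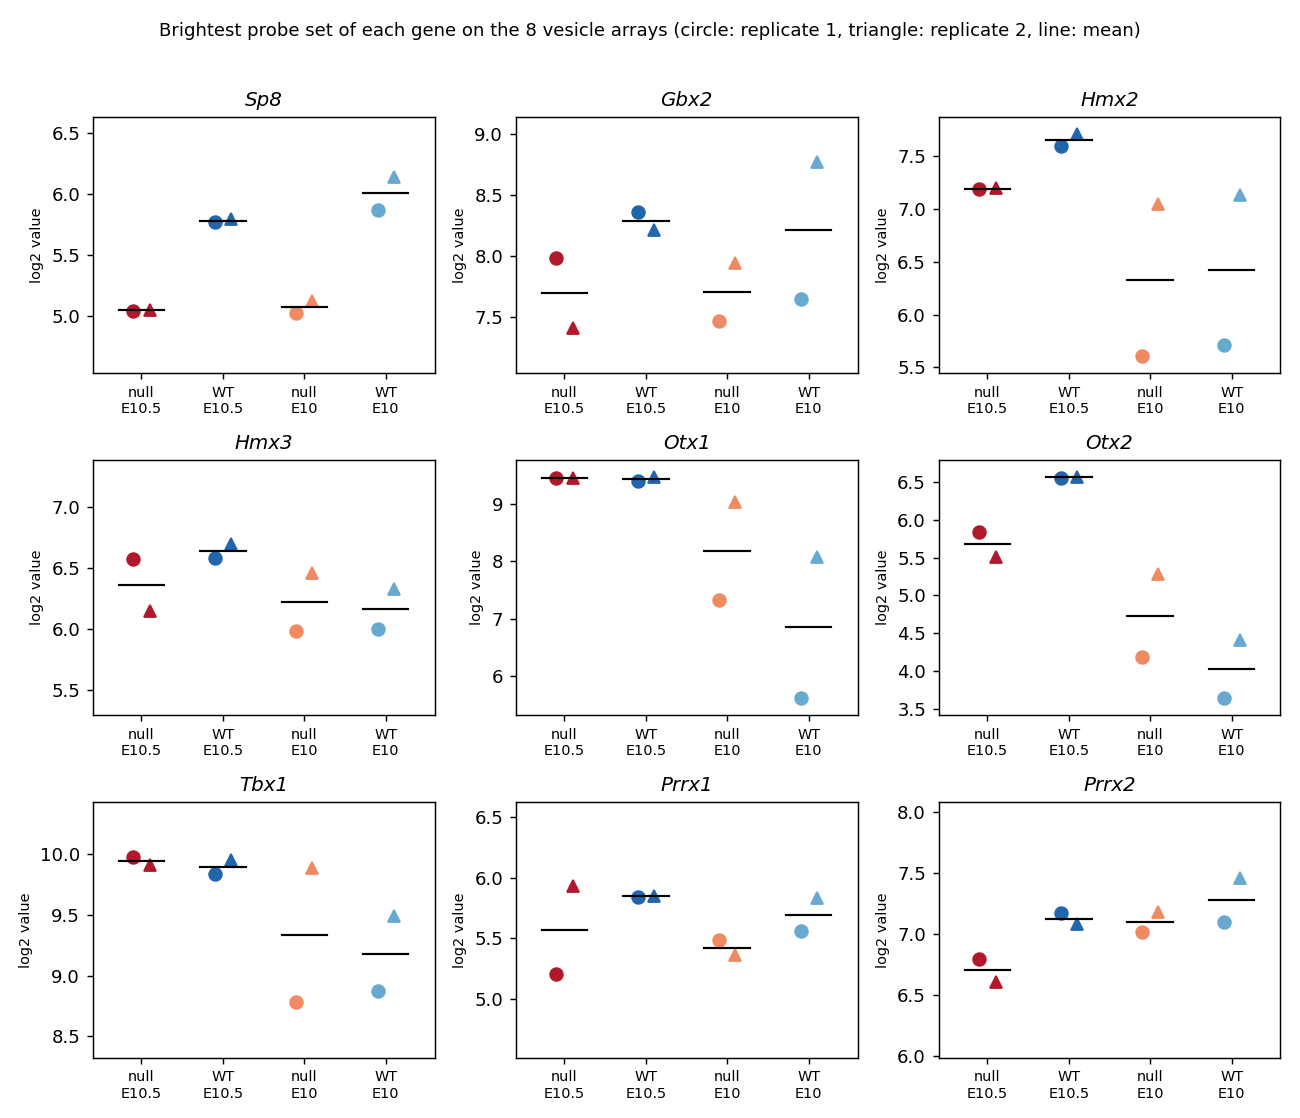
Log2 level of the brightest probe set of each gene (y axis, a separate range for each gene) on the 8 vesicle arrays, by group (x axis: labelled Dlx5-null E10.5, wild-type E10.5, labelled Dlx5-null E10, wild-type E10). Circles are replicate 1, triangles replicate 2 and lines group means. The 4 labelled-null arrays of Sp8 lie between 5.02 and 5.12, below the wild-type arrays at 5.77 to 6.14, and the replicate 1 arrays at E10 are the lowest of all vesicle arrays for Hmx2, Hmx3, Otx1, Otx2 and Tbx1.

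Gbx2 (1420337_at), the dorsomedial factor, had log2 levels of 7.98 and 7.41 in labelled-null and 8.36 and 8.21 in wild-type vesicles at E10.5. At E10 it had 7.47 and 7.94 in labelled-null and 7.65 and 8.77 in wild-type vesicles. The genotypes did not overlap at E10.5 and overlapped at E10. The difference over both stages was -0.55 (SE 0.24, 95% interval -1.09 to -0.0033, unadjusted p = 0.0489, adjusted p = 0.999), which did not pass.

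Hmx2 (1425804_at) and Hmx3 (1422150_at) lie 2729 bases apart on chromosome 7, Hmx3 at chr7:131541532-131546027 and Hmx2 at chr7:131548757-131558014 (GRCm38.p6). Hmx2 had 7.19 and 7.20 in labelled-null and 7.60 and 7.71 in wild-type vesicles at E10.5. At E10 it had 5.61 and 7.05 in labelled-null and 5.71 and 7.13 in wild-type vesicles. The genotypes were thus separate at E10.5, while at E10 the distance between replicates was about as large in either genotype and the genotypes overlapped. Hmx3 had 6.57 and 6.15 in labelled-null and 6.58 and 6.70 in wild-type vesicles at E10.5, and 5.98 and 6.46 in labelled-null against 6.0 and 6.33 in wild-type vesicles at E10. Its genotypes were apart by 0.01 at E10.5, at their nearest arrays, and overlapped at E10. The differences over both stages, -0.27 for Hmx2 (SE 0.35, 95% interval -1.07 to 0.52) and -0.11 for Hmx3 (SE 0.16, 95% interval -0.48 to 0.25), did not pass (adjusted p = 0.999 for each). Levels of the 2 genes had a Pearson correlation of 0.87 across the 8 vesicle arrays, which share their stages and libraries.

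Otx1 (1437601_at), a factor of the lateral and ventral wall needed for the lateral canal, had almost the same level in both genotypes at E10.5, with 9.45 and 9.44 in labelled-null and 9.40 and 9.47 in wild-type vesicles. At E10 it had 7.32 and 9.03 in labelled-null and 5.62 and 8.08 in wild-type vesicles. The E10 arrays spread widely and overlapped, with replicate 1 far below replicate 2 in both genotypes. The difference was 0.01 at E10.5 (95% interval -1.75 to 1.77) and 1.32 at E10 (SE 0.76, 95% interval -0.43 to 3.08), and neither passed. The E10 difference ran between 0.095 without wild-type E10 replicate 1 and 2.56 without wild-type E10 replicate 2.

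Otx2 (1425926_a_at) is the related gene of the ventral wall. It had 5.84 and 5.51 in labelled-null and 6.56 and 6.57 in wild-type vesicles at E10.5, which did not overlap. At E10 it had 4.18 and 5.28 in labelled-null and 3.64 and 4.41 in wild-type vesicles, which did. The means differed in opposite directions at the 2 stages, with a difference of -0.89 at E10.5 (SE 0.37, unadjusted p = 0.0445, adjusted p = 0.999) and 0.70 at E10 (SE 0.37, unadjusted p = 0.0960, adjusted p = 1). The interaction was -1.60 (SE 0.53, unadjusted p = 0.0166, adjusted p = 1), so a difference of effect between the stages did not pass over all probe sets. Leaving out labelled-null replicate 2 brought the E10 difference to 0.15, and leaving out labelled-null replicate 1 brought it to 1.25. Over the settings tried, the adjusted p of the interaction ran between 0.25 and 1.

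Tbx1 (1425779_a_at) was the brightest of the member probe sets in vesicles, at the 90.2 percentile of all probe sets by mean level, which orders brightness on the array and not amounts of RNA. It had 9.97 and 9.91 in labelled-null and 9.83 and 9.95 in wild-type vesicles at E10.5, and 8.78 and 9.88 against 8.87 and 9.49 at E10. The genotypes overlapped at both stages. The difference over both was 0.10 (SE 0.23, 95% interval -0.42 to 0.62, adjusted p = 0.999).

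Prrx2 (1432331_a_at) had 6.80 and 6.61 in labelled-null and 7.17 and 7.08 in wild-type vesicles at E10.5, which did not overlap. At E10 it had 7.02 and 7.18 in labelled-null and 7.10 and 7.46 in wild-type vesicles, which did. Its difference over both stages was -0.30 (SE 0.13, unadjusted p = 0.0401, adjusted p = 0.999). For Prrx1 the brightest vesicle probe set (1425527_at) had 5.21 and 5.93 in labelled-null and 5.84 and 5.85 in wild-type vesicles at E10.5, and 5.49 and 5.36 against 5.56 and 5.83 at E10. Genotypes were separate only at E10 for that probe set, and its difference over both stages was -0.27 (SE 0.16, adjusted p = 0.999).

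The 6 Prrx1 probe sets did not move as one. Their differences over both stages ran between -0.27 and 0.09, with 4 below 0 and 2 above, and none reached an unadjusted p of 0.05. Their mean vesicle levels ran between 3.04 (1439774_at) and 5.63 (1425527_at), and those of 1439774_at and 1458004_at were below the dim limit of 4.32, the lowest 25% of probe sets. The other 12 member probe sets lay above it.

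**Figure D2:**
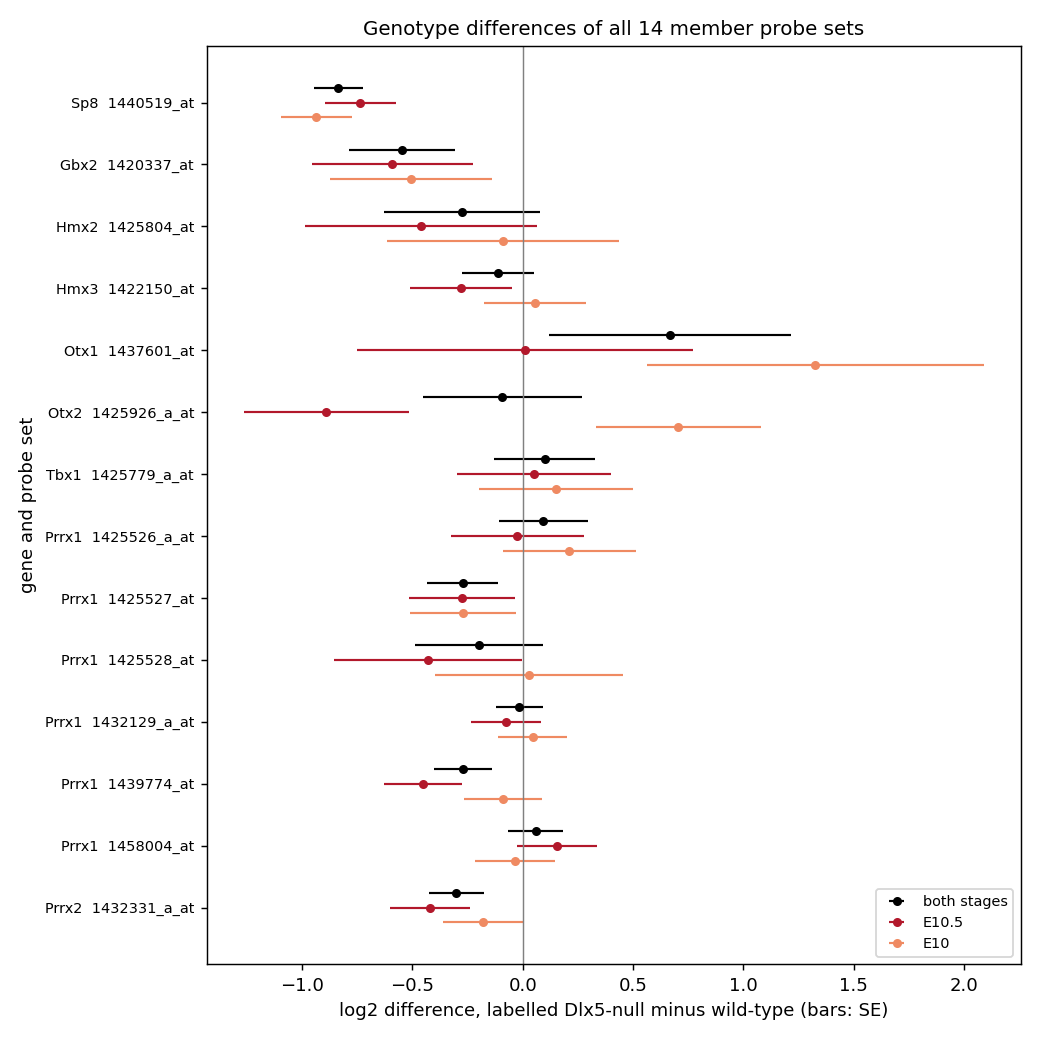
Log2 difference, labelled Dlx5-null minus wild-type (x axis), for each of the 14 member probe sets (y axis), over both stages (black), at E10.5 (red) and at E10 (orange), with bars of 1 SE from limma. Sp8 lies at -0.84 over both stages, farthest below 0 of the black points, and Otx2 lies on opposite sides of 0 at the 2 stages.

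Across the 14 probe sets over both stages, 10 were lower and 4 higher in labelled-null vesicles, with a median difference of -0.16, while all 45037 probe sets had a median of 0.01. Limma called none of the 14 at an adjusted p under 0.05, against 0.00444% of all probe sets called (2 of 45037). At an unadjusted p under 0.05 it took 3 of the 14, all lower (Sp8, Prrx2 and Gbx2), against 3.52% of all. Sp8 was the only member whose genotypes stayed apart at both stages, while 2.32% of all probe sets did so in the lower direction. At E10.5, 11 of 14 were lower and 3 higher, with a median of -0.35 against 0.01 for all probe sets. No member was called there (0.00222% of all), 4 reached an unadjusted p under 0.05 (2.54% of all), and 7 had all labelled-null arrays below all wild-type arrays (19.5% of all). The 4 were Otx2, Sp8, Prrx2 and Prrx1 1439774_at, which lies below the dim limit, and the 7 were these with Gbx2, Hmx2 and Hmx3. By the brightest probe set of each of the 9 genes, 3 reached that p and 6 were separate. At E10, 7 were lower and 7 higher, with a median of -0.00, none was called (0% of all), 1 reached an unadjusted p under 0.05 (Sp8; 2.98% of all), and 2 were separate in the lower direction (Sp8 and Prrx1 1425527_at; 9.52% of all). In the interaction none was called (0% of all), and 1, Otx2, reached an unadjusted p under 0.05 (2.13% of all). The E10.5, E10 and both-stage values rest on the same arrays.

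Other features moved with the labels at E10.5. The mean log2 level of 7 blood genes was 10.3 and 10.3 in labelled-null and 9.19 and 9.21 in wild-type vesicles at E10.5, and 7.49 and 8.32 against 7.5 and 8.29 at E10. All 7 were higher at E10.5, and none passed by adjusted p. The 8 otic ganglion neuron genes averaged 8.68 and 8.57 against 8.24 and 8.30 at E10.5, and 7.72 and 7.43 against 6.82 and 7.33 at E10. Eif2s3y, a Y-linked gene, stood at 4.82 and 5.04 in labelled-null and 3.21 and 3.45 in wild-type pools at E10.5, and at 6.50 and 6.17 against 7.04 and 3.96 at E10. With Eif2s3y as a covariate the Sp8 difference over both stages was -0.75 (adjusted p = 0.193). Over both stages all 7 blood genes (median 0.62) and all 8 neuronal genes (median 0.37, led by Pou4f1 at 0.92 and Dcx at 0.65) had higher values in labelled-null vesicles, 6 of 7 endothelial genes had lower ones (median -0.14), and none was called. The part of these tissues in the members' differences was not tested.

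Mean marker levels of 2 tissues that lie against the vesicle were closer between genotypes at E10.5. The 17 periotic mesenchyme genes, the tissue in which Prrx1 and Prrx2 are best known, averaged 6.56 and 6.38 in labelled-null and 6.65 and 6.55 in wild-type vesicles at E10.5, and 6.0 and 6.21 against 6.05 and 6.38 at E10. Over both stages 12 of the 17 were lower and 5 higher in labelled-null vesicles, none was called, and the median difference was -0.10. The collagen-binding proteoglycan genes Lum (-0.86, unadjusted p = 0.0121) and Dcn (-0.40, unadjusted p = 0.00592) had the lowest p among them. The 11 hindbrain and neural tube genes, a tissue that also expresses Gbx2 and Sp8, averaged 5.01 and 5.11 against 5.13 and 5.04 at E10.5, and 5.11 and 5.08 against 5.29 and 5.13 at E10. Over both stages 8 of the 11 were higher and 3 lower in labelled-null vesicles, with a median of 0.02 and none called. Zic1 was by far the brightest of them, at a vesicle mean of 10.0 with Pax3 next at 6.05. It was among the lower, with -0.44 over both stages (SE 0.24, limma adjusted p = 0.999), and was separate at E10.5 (-0.585). Of 5 surface ectoderm genes, 4 were higher and 1 lower in labelled-null vesicles over both stages, with a median of 0.04 and none called. The part of these tissues in the Sp8 and Gbx2 differences was not tested.

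Among 16 genes of dorsal otocyst signals and factors, all measured, 9 were higher and 7 lower in labelled-null vesicles over both stages, with a median of 0.03, and none was called. The homeobox gene Msx1, a target of Bmp signals, had a difference of -0.70 (SE 0.10, adjusted p = 0.117), and Bmp4, a ligand made in the patches that become canal sensory organs, had -0.91 (SE 0.14, adjusted p = 0.185). For both genes every labelled-null array lay below every wild-type array of its stage. Dlx3 (0.24) and Lrig3 (0.13) were separate at both stages in the higher direction. Of all 45037 probe sets, 1046 were separate at both stages in the lower direction and 933 in the higher. Msx2 (-0.69) and Lmo4 (-0.66) came next in size (adjusted p = 0.999 each). Of 16 ventral and hedgehog-dependent genes, 14 were measured, 9 were higher and 5 lower, and none was called. The homeobox gene Emx2 had 0.79 (SE 0.36, adjusted p = 0.999), and Sox2, the factor of the prosensory domain, had -0.53 (SE 0.12, adjusted p = 0.609). Sox2 was the 1 gene of that list separate at both stages, in the lower direction. Of 12 retinoic acid axis genes, 10 were measured, 3 higher and 7 lower, with none called, and Aldh1a3, a retinoic acid synthesis enzyme, had 1.29 (SE 0.28, adjusted p = 0.600). Aldh1a3 alone among those 10 was separate at both stages, in the higher direction. Of 12 relatives of the members, such as Tbx18 (0.36) and Shox2 (0.32), 10 were measured, 8 higher and 2 lower, and none was called. Of 12 otic epithelium genes, 9 were measured, 4 higher and 5 lower, with a median of -0.12 and none called. Among them Pax8, an early otic paired-box gene, had a difference of -0.93 (SE 0.16, adjusted p = 0.252), and Oc90 had 0.305. Pax8 and Cdh1 (-0.38) were separate at both stages in the lower direction, and Epcam (0.14) in the higher.

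The comparison of E10.5 with E10 shows how the same genes changed over a short span of otocyst growth. Otx2 rose in wild-type vesicles, with 6.56 and 6.57 at E10.5 and 3.64 and 4.41 at E10, a difference of 2.54 on the log2 scale (SE 0.37, 95% interval 1.68 to 3.40, limma adjusted p = 0.0368). The wild-type mean at E10, 4.03 ± 0.54 (SD, n = 2), lies below the dim limit of 4.32, so no fold is given for this difference. It was the single member called in this contrast, in which 0.835% of all probe sets were called. In labelled-null vesicles its difference was 0.94 (SE 0.37, unadjusted p = 0.0354, adjusted p = 0.431), and the interaction given above is the test of the gap between these 2 values. The arrays of the stages did not overlap in either genotype.

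The Otx2 call depended on single arrays. Its adjusted p was 0.132 without wild-type E10 replicate 1 (difference 2.15), 0.388 and 0.337 without wild-type E10.5 replicate 1 and replicate 2, and 0.102 when either of the labelled-null E10.5 arrays was removed. It was 0.0533 with arrays centred on the median and 0.187 with Eif2s3y as a covariate (difference 1.91). Without the replicate 1 arrays of both genotypes at E10, which leaves 1 wild-type array at that stage, the difference was 2.15. Each run above without an array likewise left 1 array in its group, with the spread taken from the other groups. Under every setting tried the difference stayed between 1.91 and 2.93.

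Otx2 has 4 RefSeq windows on the minus strand of chromosome 14. The window with the most matches is printed because Otx2 is the member that passed a test. It is written in the direction of the gene, with TAATTA in capitals at 3 places and the bicoid-class motif once, on the opposite strand, as GGATTA.

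Otx2 chr14:48665060-48665359: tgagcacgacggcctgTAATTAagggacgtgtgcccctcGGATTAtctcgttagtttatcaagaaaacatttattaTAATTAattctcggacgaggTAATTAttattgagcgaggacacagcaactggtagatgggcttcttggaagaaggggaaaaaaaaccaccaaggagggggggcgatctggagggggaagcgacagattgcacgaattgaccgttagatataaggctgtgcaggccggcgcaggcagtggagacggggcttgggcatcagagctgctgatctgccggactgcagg

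Otx1 had a stage difference as large as that of Otx2, with 9.40 and 9.47 at E10.5 and 5.62 and 8.08 at E10 in wild-type vesicles. The stages did not overlap, but the E10 arrays were 2.46 apart, and the difference of 2.58 (SE 0.76, 95% interval 0.83 to 4.34) had an adjusted p of 0.171. In labelled-null vesicles it was 1.27 (SE 0.76, adjusted p = 0.653). Without the replicate 1 arrays of both genotypes at E10 the wild-type difference was 1.36, and without wild-type E10 replicate 2 it was 3.81, each with 1 wild-type E10 array left. With Eif2s3y as a covariate it was 0.77 (adjusted p = 0.732).

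Hmx2 had stage differences of 0.86 in labelled-null (SE 0.53, adjusted p = 0.661) and 1.24 in wild-type vesicles (SE 0.53, adjusted p = 0.329). Tbx1 had 0.61 (SE 0.35, adjusted p = 0.628) in labelled-null and 0.71 (SE 0.35, adjusted p = 0.399) in wild-type vesicles. For both genes the 2 E10.5 arrays lay above the 2 E10 arrays in either genotype. Hmx3 had 0.14 in labelled-null and 0.48 in wild-type vesicles. Gbx2 had -0.01 in labelled-null and 0.08 in wild-type vesicles, and Prrx2 had -0.40 in labelled-null and -0.16 in wild-type vesicles. None of these passed.

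In wild-type vesicles 10 of the 14 probe sets were higher at E10.5 and 4 lower, with a median of 0.35 against -0.06 for all probe sets. There, 5 of the 14 reached an unadjusted p under 0.05, all higher, against 14.8% of all. They were Otx2, Otx1, Hmx2 and the Prrx1 probe sets 1425528_at and 1439774_at. Of the 14, 8 had both E10.5 arrays above both E10 arrays, against 22.1% of all. In labelled-null vesicles 9 were higher and 5 lower, with a median of 0.14 against -0.02. None was called by limma there (0.0688% of all), 1 reached an unadjusted p under 0.05 (10.4% of all), and 6 were separate in the higher direction (18.2% of all). The 2 contrasts share no array.

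**Figure D3:**
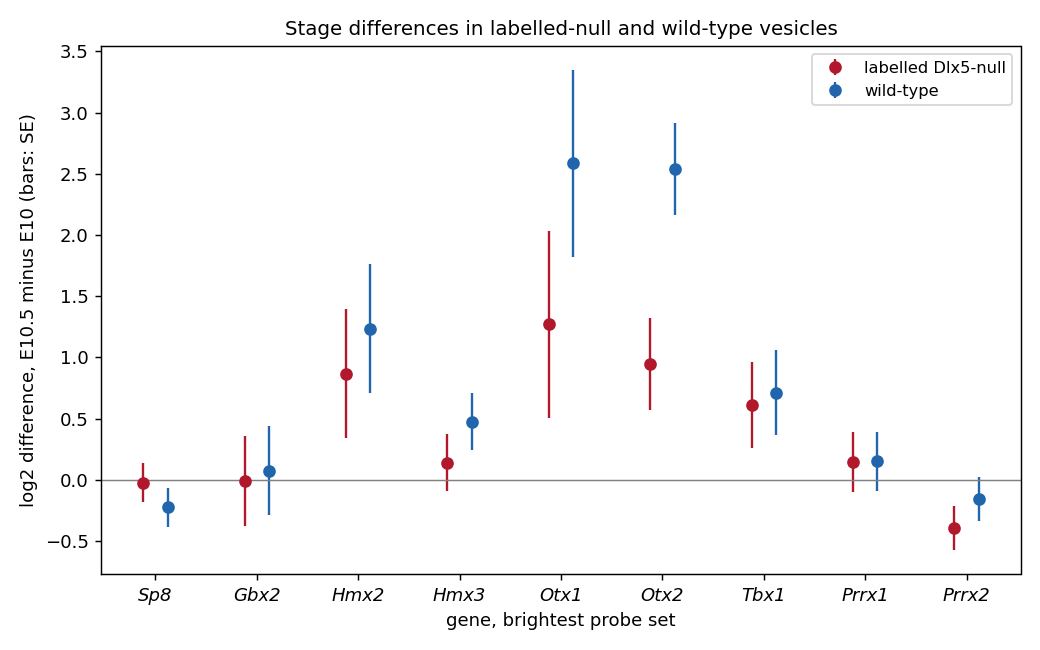
Log2 difference, E10.5 minus E10 (y axis), of the brightest probe set of each gene (x axis), in labelled Dlx5-null (red, left) and wild-type vesicles (blue, right), with bars of 1 SE from limma. Otx2 lies at 0.94 in labelled-null and 2.54 in wild-type vesicles and Otx1 at 1.27 and 2.58. Gbx2, Sp8 and the Prrx1 probe set shown (1425527_at) lie between -0.22 and 0.15 in both.

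Replicate 1 at E10 stood apart for these genes in both genotypes. On those 2 arrays Hmx2, Hmx3, Otx1, Otx2 and Tbx1 had the lowest values of all 8 vesicle arrays, and the spread of all probe set values was narrower (SD 2.33 in the labelled-null and 2.32 in the wild-type array, against 2.38 to 2.47 on the other 6). The otic epithelium genes were also low there, with means of 8.70 in the labelled-null and 8.77 in the wild-type array, against 9.13 to 9.44 on the others. Xist, the RNA of the inactive X chromosome, stood at 4.98 in the labelled-null and 5.07 in the wild-type array, against 8.91 to 9.72 on the other 6. The Y-linked Eif2s3y stood at 6.50 and 7.04 on those 2 arrays, against 3.21 to 6.17 on the other 6. By these 2 genes the sex of the embryos in the pools differed within the wild-type stage contrast. Its part in these low values and in the Otx2 call was not tested. Across the 8 vesicle arrays the levels of Otx1, Otx2, Hmx2 and Tbx1 went together, with Pearson correlations of 0.94 between Hmx2 and Tbx1, 0.92 between Otx1 and Tbx1 and 0.89 between Otx1 and Otx2. Sp8 correlated with Prrx2 at 0.73 and with Gbx2 at 0.71. These correlations describe arrays that share stage, genotype and pools.

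Among genes outside the list that changed with stage in wild-type vesicles, the dorsal factor Gata2 rose by 1.39 (SE 0.17, adjusted p = 0.0281). In the ventral and hedgehog list, Gli1, the hedgehog-responsive factor, rose by 1.07 (SE 0.16, adjusted p = 0.0368) and Isl1, a LIM homeobox gene of neurons and sensory epithelium, by 2.51 (SE 0.20, adjusted p = 0.0124). The neuronal genes Tubb3 and Stmn2 rose as well, by 2.49 and 2.87, the mesenchymal genes Lum and Dcn by 2.48 and 1.52, and the endothelial genes Tie1 and Pecam1 by 1.71 and 0.99. Over whole lists, 7 of 8 neuronal genes were higher and 1 lower (median 0.85), with Neurod1 at -0.77 (adjusted p = 0.302). Of 7 blood genes 6 were higher and 1 lower (median 1.27) with none called, of 7 endothelial genes 6 were higher (median 0.51), and of 17 mesenchymal genes 10 were higher and 7 lower (median 0.14). The part of these tissues in the Otx2 difference was not tested. Pax8 fell by 1.31 (SE 0.21, adjusted p = 0.0435), while 7 of the 9 otic epithelium genes were higher at E10.5 and 2 lower (median 0.525). Calls in the lists were 1 of 16 dorsal, 2 of 14 ventral, 3 of 8 neuronal, 2 of 17 mesenchymal and 2 of 7 endothelial genes, all higher, with Isl1 in both the ventral and the neuronal list. Pax8 and, in the hindbrain list, Pax7 were the 2 called lower. In labelled-null vesicles the calls in the lists were the blood gene Hemgn (3.27, adjusted p = 0.0168), Dcn (1.56, adjusted p = 0.0363) and Stmn2 (3.59, adjusted p = 0.0393), all higher at E10.5.

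The 3 genes most like each member were found by Pearson correlation over the 8 vesicle arrays, among 13643 other genes at 1 probe set each. For Sp8 they were Mid1ip1 (0.98), Cntnap4 (0.97) and Dkk2 (0.96). For Otx2 they were Rubcn (1.00), Acad10 (0.99) and Leng8 (0.99), for Otx1 Sympk, Zc3h7b and Ldhb (0.99 to 1.00), for Tbx1 Trappc3, Gpr176 and Rilpl1 (0.99 to 1.00) and for Hmx2 Stat6, Cyth3 and Ptgr1 (0.99 to 1.00). For Hmx3 they were Cmtr1, Ap1g2 and Npnt (0.98 to 0.99), for Gbx2 Dnajc10, Polr2h and Gins2 (0.97 to 0.98), and for Prrx2 Nol11, Tubgcp3 and Ndfip2 (0.97 to 0.99). For Prrx1 they were Srgap2, Lmln and Acot2, with the lowest likeness (0.84 to 0.86). With 8 arrays and this many genes, such values are a description of these arrays.

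In 2B1 cells the same genes were compared between cultures labelled as transfected with Dlx5, whose Dlx5 probe set did not differ by test from that of the controls, and cultures with the empty vector. Sp8 had 7.67 and 7.83 with Dlx5 and 7.63 and 7.86 with the empty vector, at the 82.4 percentile of the probe sets on those arrays, and its difference was 0.00 (95% interval -0.39 to 0.40). The groups overlapped. Otx2 had 3.14 and 3.09 with Dlx5 and 3.36 and 3.49 without it, which did not overlap, with a difference of -0.31 (SE 0.15, unadjusted p = 0.0798, adjusted p = 0.537). Its mean lay below the dim limit of 4.09 there, as did those of Gbx2, Hmx3 and Tbx1.

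Prrx1 lay above the median of all probe sets in 2B1 cells by 5 of its 6 probe sets. Its brightest there (1425526_a_at) had 8.10 and 7.97 with Dlx5 and 7.64 and 8.11 with the empty vector, which overlapped. The probe set 1439774_at had 6.68 and 6.70 with Dlx5 and 5.68 and 6.35 with the empty vector, which did not, with a difference of 0.68 (SE 0.23, unadjusted p = 0.0239, adjusted p = 0.521). Empty vector replicate 1 was the lowest array for 4 of the 6 Prrx1 probe sets and had a narrower spread of all values (SD 2.19 against 2.29 to 2.31 on the other 3 arrays). Without that array the difference of 1439774_at was 0.34, and that of 1425526_a_at was -0.08, against 0.16 with it. Prrx2 had 4.76 and 4.82 with Dlx5 and 4.57 and 4.68 in empty-vector cells, and the difference was 0.16 (SE 0.15, adjusted p = 0.703), with groups that did not overlap.

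Hmx2 had 4.32 and 4.40 with Dlx5 and 4.37 and 4.63 with the empty vector, and Otx1 had 4.08 and 4.15 against 4.24 and 4.16. Differences of Gbx2, Hmx2, Hmx3, Otx1 and Tbx1 lay between -0.14 and 0.22 and none passed. Across the 14 probe sets 8 were higher and 6 lower with Dlx5, with a median of 0.02 against 0.00 for all probe sets. Limma called none of them and none of all 45037 (0%), and 1 of the 14 reached an unadjusted p under 0.05, against 9.52% of all (4288 probe sets). Of the 14, 3 were separate in the higher direction (22.1% of all) and 3 in the lower (20.6% of all).

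**Figure D4:**
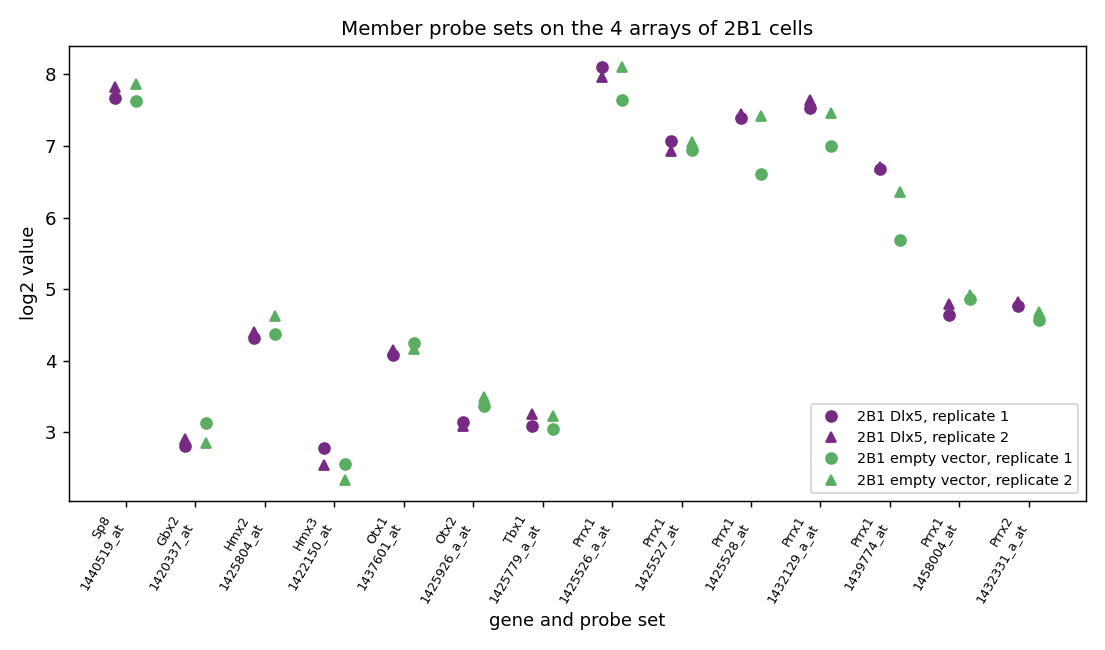
Log2 level (y axis) of the 14 member probe sets (x axis) on the 4 arrays of 2B1 cells, with Dlx5-transfected cultures in purple on the left and empty-vector cultures in green on the right of each position, circles for replicate 1 and triangles for replicate 2. Sp8 and 5 of the Prrx1 probe sets lie highest, with Sp8 between 7.63 and 7.86 in both groups, and the widest gap is at 1439774_at.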

How the data were processed

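Each sample was hybridised to 1 Affymetrix mouse array. The deposited values are log2 expression values per probe set, and RMA and Affymetrix Expression Console are named as tools per the submitters' processing notes, with no versions or settings. RMA combines a background correction, quantile normalization and a summary over the probes of each set, and differences of dim probe sets come out compressed. Without detection calls the signal over background is unknown, and the number of arrays limits the precision. No 2 arrays held the same values (at most 2.78% equal).

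Groups and replicate numbers came from the titles. Of 45101 probe sets, 64 control sets were left out. Of the remaining 45037, 34945 carried 1 gene, 932 several and 9160 none, and all were tested. Symbols were updated by gene identifier through RefSeq (GRCm38.p6), which matched 34741. Differences were fitted by lmFit and eBayes of limma 3.58.1 (R 4.3.3), with p-values adjusted by Benjamini-Hochberg over all 45037 and a threshold of 0.05. The effect over both stages had stage as a covariate (5 residual degrees of freedom). Contrasts by stage and genotype and the interaction came from the 4 vesicle group means (4 residual degrees of freedom). The 4 arrays of 2B1 cells were fitted apart (2 residual degrees of freedom). Where a gene has several probe sets, the one with the highest mean stands for it, and a dim limit was set at the lowest 25% of means.

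All 9 genes were named, with all 14 probe sets. Up to 4 genes of each axis list were named by rule, with called genes ahead of the rest and larger differences over both stages ahead of smaller ones. Outside that rule, Dlx3 and Lrig3 were named because their genotypes were separate at both stages. Gata2 was named in addition for its call between the wild-type stages. Genes named from the lists of cell types were chosen after their values were seen. The members and lists were chosen with earlier results of these data known. Alternatives were other filters and scalings, an intensity trend, a replicate block, Eif2s3y as a covariate, and arrays left out. The fits were tested on simulated data.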

Additional observations from a re-analysis of the deposited data

How the results depend on the processing

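Differences of the brightest probe set of each member, the interactions of Otx1, Otx2 and Sp8, and the Prrx1 probe set 1439774_at in 2B1 cells, added after its values were seen, were recomputed under other filters, scalings and models and with single arrays left out. Of the 856 values, 801 kept their direction and their side of the threshold. The rest were 46 that turned direction, 7 that lost a call and 2 that gained one. Cause was not tested for any of them. The Otx2 rise in wild-type vesicles was the 1 member call, and the 7 lost calls are all of it. The Sp8 genotype difference over both stages kept its sign under every setting tried.

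Counts of probe sets called moved more. For genotype over both stages, with 2 called, the count was 10 with an intensity trend in eBayes, 19 with a replicate block, 35 without both E10 replicate 1 arrays, 0 with Eif2s3y as a covariate (4267 at an unadjusted p under 0.05), and 0 to 16 with single arrays left out. At E10, with 0, it was 5 with the block, 4 without those 2 arrays and 0 to 3 with single arrays left out. At E10.5, with 1, it was 2 with the trend, 2 with median and SD scaling, 25 with the block, 52 without those 2 arrays, 0 with Eif2s3y (1945 at an unadjusted p under 0.05) and 0 to 7 with single arrays left out. The interaction, with 0, had 1 with the trend, 1 with median centring, 1 with median and SD scaling, 2 without those 2 arrays and 0 to 1 with single arrays left out. The wild-type stage contrast, with 376, had 695 with the trend, 219 with median centring, 1674 without those 2 arrays, 6 with Eif2s3y and 0 to 1081 with single arrays left out. The labelled-null one, with 31, had 115 with the trend, 3 with 1 probe set per gene, 314 without those 2 arrays and 0 to 128 with single arrays left out. The 2B1 contrast had 0 throughout the runs with single arrays left out.

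Deviations of same-numbered arrays correlated at 0.66 at E10, so arrays of the same number shared a deviation at that stage. At E10.5 (0.02) and in 2B1 cells (-0.10) they did not. The titles do not say what a replicate number shares, and the main fits have no replicate term. The block over both stages in the stage contrasts was chosen after seeing the data, and it gave Otx2 an adjusted p of 0.0380.

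With Eif2s3y as a covariate, directions turned for Hmx2 (0.33), Hmx3 (0.064) and Otx2 (0.38) over both stages, Hmx2 at E10 (0.32), Gbx2 (0.031) and Hmx2 (0.33) at E10.5, Gbx2 in the wild-type stage contrast (-0.77) and Hmx3 in the labelled-null one (-0.039). Median centring turned Otx1 at E10.5 (-0.03) and, between labelled-null stages, Gbx2 (0.02) and Sp8 (0.005). Median and SD scaling turned Sp8 between labelled-null stages (0.015) and in 2B1 cells (-0.017). Without both E10 replicate 1 arrays, Gbx2 turned in the wild-type stage contrast (-0.48) and Hmx3 in the labelled-null one (-0.10).

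With single arrays left out, differences that turned direction had these ranges. For genotype over both stages they were Hmx3 -0.24 to 0.005, Otx2 -0.47 to 0.13 and Tbx1 -0.13 to 0.31. For genotype at E10 they were Gbx2 -1.07 to 0.055, Hmx2 -0.81 to 0.63, Hmx3 -0.19 to 0.30 and Tbx1 -0.40 to 0.70. For genotype at E10.5 they were Otx1 -0.025 to 0.045, Prrx1 -0.64 to 0.085 and Tbx1 -0.01 to 0.11. Between wild-type stages they were Gbx2 -0.49 to 0.64 and Prrx2 -0.34 to 0.025. Between labelled-null stages they were Gbx2 -0.30 to 0.28, Hmx3 -0.10 to 0.38, Sp8 -0.075 to 0.025 and Prrx1 -0.22 to 0.51. For Dlx5 transfection of 2B1 cells they were Gbx2 -0.28 to 0.005, Sp8 -0.11 to 0.12, Prrx1 -0.075 to 0.40 and Tbx1 -0.045 to 0.13. Without turning, 1 array moved Hmx2 over both stages between -0.60 and -0.024 and Otx1 over both stages between 0.044 and 1.03.

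Prrx1 had a mean vesicle level of 5.63 by its brightest probe set, and by the others 4.79, 5.17, 5.21, 3.04 and 3.86. Values at the dim end are compressed by RMA, and with 2 arrays a group a lone array left after another was removed was assumed to vary like the other groups.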
